A study of Mus musculus with 16 samples.

Results

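The 10 genes described here carry the TREM2-TYROBP signal of microglia and the immunoreceptor tyrosine-based activation motif (ITAM) pathway below it, together with the B cell scaffold gene Bank1. They were taken by symbol, and each of the 10 matched 1 of the 17951 genes in the deposited table. The values come from RNA sequencing of sorted brain microglia of 5xFAD mice, a line that develops amyloid beta (Aβ) plaques. All mice, the wild type included, had been injected with Methoxy-X04 (Me-X04), a dye that crosses into the brain and labels Aβ aggregates. Live single cells positive for Cd11b and Cd45 were sorted, with Cx3cr1 as a further sorting marker in the study's methods. The WT group had 7 libraries of Me-X04 negative microglia from mice labelled 2 months old. The TG Me-X04- group had 5 libraries and the TG Me-X04+ group 4 libraries, from transgenic mice labelled 6 months old, sorted as dye negative and dye positive. The study's methods give an age close to that of the labels for the TG mice but an older age for the WT mice. By the labels age and genotype therefore changed together and cannot be told apart in either comparison with WT. The dye negative and dye positive TG libraries labelled with the same number, 1 to 4, were taken as coming from the same animal, TG1 to TG4.

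TREM2 is a surface receptor of microglia and other myeloid cells that binds lipids, lipoproteins and Aβ, and it has no signalling motif of its own. It pairs with the adaptor TYROBP (DAP12), whose ITAM is phosphorylated by Src family kinases such as LYN and then recruits the kinase SYK. SYK acts with the adaptor BLNK and the kinase BTK on phospholipase C gamma 2 (PLCG2), and the phosphatases SHIP1 (gene Inpp5d) and SHP-1 (gene Ptpn6) restrain the pathway. BANK1 is a scaffold best known from B cell receptor signalling, where it binds LYN, and variants near several of these genes, Trem2, Plcg2 and Inpp5d among them, are linked to the risk of Alzheimer's disease in people.

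TG Me-X04+ microglia, which carried the Aβ dye, held more Trem2 and almost no Bank1, and most of the signalling chain between them did not pass the test. Against TG Me-X04-, Trem2 rose by a log2 fold change (log2FC) of 1.35 and Bank1 fell by 5.01. Tyrobp, the adaptor of TREM2, was higher by 1.97 on average within an animal. It did not pass limma's test on group alone (adjusted p = 0.104). It passed with the animal as a random block (adjusted p = 0.012). It also passed with a term for 2 sets of libraries described below (adjusted p = 1.38e-05). Those sets were drawn from these same values, so that p is no separate support. The 7 other genes had a log2FC between -0.55 and 0.19, none of which passed. Between TG Me-X04- and WT microglia no gene of the 10 passed.

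Levels are log2 RPKM as deposited, that is, reads scaled to the length of the gene and the size of the library, with a small number of reads added before the logarithm. Differential expression (DE) was called by limma's two-sided test where the log2FC was 0.7 or more in size and the p-value, adjusted by Benjamini-Hochberg over the 17951 genes, lay below 0.05. Reads on the listed genes numbered 15623664 to 27579017 per library. The library size used for the scaling differed from these reads by group. It was 0.543 to 0.981 times the reads in TG Me-X04+, 0.790 to 1.427 times in TG Me-X04- and 0.932 to 1.267 times in WT. Differences in log2 RPKM between groups therefore depend on this scaling. The libraries fell into 2 sets on the first principal component of their deviations from the group means, which took 37.8% of the variance. Set A held WT 1 to 3, TG Me-X04- 1 and 2 and TG Me-X04+ 1 and 2, and set B held the other 9 libraries. The sets were drawn from the values under test, so a term for them lowers the remaining spread by construction. The study's methods name 2 sequencers but not which library ran on which. The microglia markers fixed for the check all had a row, with a summed level of 4599 to 8414 RPKM over the 16 libraries. The lists for neurons, astrocytes, oligodendrocytes, endothelial cells, neutrophils, and monocytes with border macrophages each summed to 29.5 RPKM or less in every library. These lists were covered in part. A row was present for 3 of 5 neuron, endothelial and neutrophil markers each. It was present for 4 of 5 astrocyte and oligodendrocyte markers each and 5 of 6 monocyte and border macrophage markers. In such bulk libraries fewer cells of a type and less RNA per cell cannot be told apart.

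Promoter windows, from 250 bases before to 50 after the gene start that RefSeq gives (GRCm38.p6), were at hand for 8 of the 10 genes. Those of Trem2 and Bank1 are shown because these genes were called in opposite directions, and those of Inpp5d and Blnk because they hold the sequence AGGAAGT, a core that the myeloid ETS factor PU.1 binds. Capitals mark AGGAAGT in either orientation. The Trem2 window lies at chr17:48346151-48346450, plus strand, the Bank1 window at chr3:136326017-136326316, minus strand, the Inpp5d window at chr1:87620062-87620361, plus strand, and the Blnk window at chr19:40994172-40994471, minus strand. Each is written 5' to 3' on the strand of its gene. The RefSeq start was not always that of the gene coordinates given below. The Blnk, Btk and Syk windows lie wholly inside those coordinates.
Trem2: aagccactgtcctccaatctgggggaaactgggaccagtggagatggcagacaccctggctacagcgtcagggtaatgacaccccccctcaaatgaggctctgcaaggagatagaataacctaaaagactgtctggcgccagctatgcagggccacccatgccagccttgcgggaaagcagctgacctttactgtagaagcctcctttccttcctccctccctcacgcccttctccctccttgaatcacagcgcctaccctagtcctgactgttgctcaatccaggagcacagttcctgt
Bank1: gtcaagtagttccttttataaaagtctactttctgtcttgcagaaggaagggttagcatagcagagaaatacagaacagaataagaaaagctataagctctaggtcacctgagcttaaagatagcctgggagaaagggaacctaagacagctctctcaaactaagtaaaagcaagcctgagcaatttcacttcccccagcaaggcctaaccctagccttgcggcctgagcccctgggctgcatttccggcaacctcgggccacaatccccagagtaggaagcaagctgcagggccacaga
Inpp5d: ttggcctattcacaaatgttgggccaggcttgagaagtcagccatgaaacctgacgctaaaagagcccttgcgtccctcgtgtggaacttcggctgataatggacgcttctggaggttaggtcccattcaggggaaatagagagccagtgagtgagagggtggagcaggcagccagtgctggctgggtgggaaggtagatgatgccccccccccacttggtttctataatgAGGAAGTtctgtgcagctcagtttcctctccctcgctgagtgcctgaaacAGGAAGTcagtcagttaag
Blnk: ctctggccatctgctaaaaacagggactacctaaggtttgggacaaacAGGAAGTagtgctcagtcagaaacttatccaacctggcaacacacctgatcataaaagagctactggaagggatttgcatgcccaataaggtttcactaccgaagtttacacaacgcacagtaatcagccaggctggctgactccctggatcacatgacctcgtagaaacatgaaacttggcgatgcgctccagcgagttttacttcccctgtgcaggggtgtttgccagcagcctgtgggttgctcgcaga
The Inpp5d window held AGGAAGT 2 times, and the Blnk and Ptpn6 windows held it 1 time each, in either orientation. Of all 32851 promoter windows in the RefSeq table, 9.35% held it. The E-box CACGTG was found in the Plcg2 window alone among these genes, and in 7.15% of all windows, while the AP-1 sequence TGACTCA was found in none of these genes' windows and in 5.2% of all. A match describes letters and not a bound site.

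Trem2 (ENSMUSG00000023992, chr17:48346401-48354147) encodes the receptor. In the 7 WT libraries its log2 RPKM had a lowest value of 4.71, a median of 5.27 and a highest value of 5.57. The TG Me-X04- libraries 1 to 5 stood at 5.13, 5.30, 5.77, 5.49 and 5.02, and the TG Me-X04+ libraries 1 to 4 at 6.21, 6.97, 7.14 and 6.47. Every TG Me-X04+ library lay above every other library, and the WT and TG Me-X04- libraries overlapped. The mean was 6.70 ± 0.43 (SD, n = 4) in TG Me-X04+ against 5.34 ± 0.30 (n = 5) in TG Me-X04-, a log2FC of 1.35 ± 0.23 (SE, adjusted p = 0.0021), or 2.56-fold. Against WT (5.20 ± 0.26, n = 7) the log2FC was 1.49 ± 0.21 (adjusted p = 0.000115), and between TG Me-X04- and WT it was 0.14 ± 0.20 (adjusted p = 0.999). The difference of TG Me-X04+ against TG Me-X04- came to 1.38 among set A libraries and 1.37 among those of set B, and to 1.08, 1.67, 1.37 and 0.98 in animals TG1 to TG4. After quantile normalization it was 0.75 and no longer called (adjusted p = 0.073), within a range of 0.000119 to 0.073 over 25 alternatives.

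Tyrobp (ENSMUSG00000030579, chr7:30413760-30417585) encodes the ITAM adaptor through which TREM2 signals. The WT libraries had a lowest log2 RPKM of 7.93, a median of 8.96 and a highest value of 10.11. The TG Me-X04- libraries 1 to 5 stood at 8.11, 8.07, 10.47, 10.10 and 9.51, and the TG Me-X04+ libraries 1 to 4 at 9.99, 10.24, 12.33 and 12.06. Within each set the TG Me-X04+ libraries lay above all others, but TG Me-X04+ libraries of set A overlapped TG Me-X04- libraries of set B. The gap between the sets was larger for Tyrobp than for any other of the 10 genes in each group. Set B stood above set A by 1.62 in WT, by 1.94 in the dye negative TG group and by 2.08 in the dye positive one, where the median size over all genes was 0.67, 0.61 and 0.83.

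The log2FC of Tyrobp of TG Me-X04+ against TG Me-X04- was 1.90 ± 0.65, which was not called (adjusted p = 0.104). Within an animal the difference was 1.88, 2.17, 1.86 and 1.96, a mean of 1.97 ± 0.14 (SD, n = 4 animals), higher in 4 of 4 animals. Blocking on the replicate number gave a log2FC of 2.10, which was called (adjusted p = 0.014). That block also joined WT libraries of the same number, which are other animals. With the animal as a random block the log2FC was 1.93 and called (adjusted p = 0.012). A term for the 2 sets, which were drawn from these same values, gave 2.09 (adjusted p = 1.38e-05). The adjusted p ranged from 1.38e-05 to 0.565 over 25 alternatives. Within set A the difference was 2.03 and within set B 2.17. Against WT the log2FC was 2.24 ± 0.61 and called (adjusted p = 0.0184), but not without TG Me-X04+ replicate 3 (1.85, adjusted p = 0.0689) or replicate 4 (1.94, adjusted p = 0.0613), nor after quantile normalization (1.41, adjusted p = 0.281). Between TG Me-X04- and WT it was 0.34 ± 0.57 (adjusted p = 0.999).

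**Figure D1:**
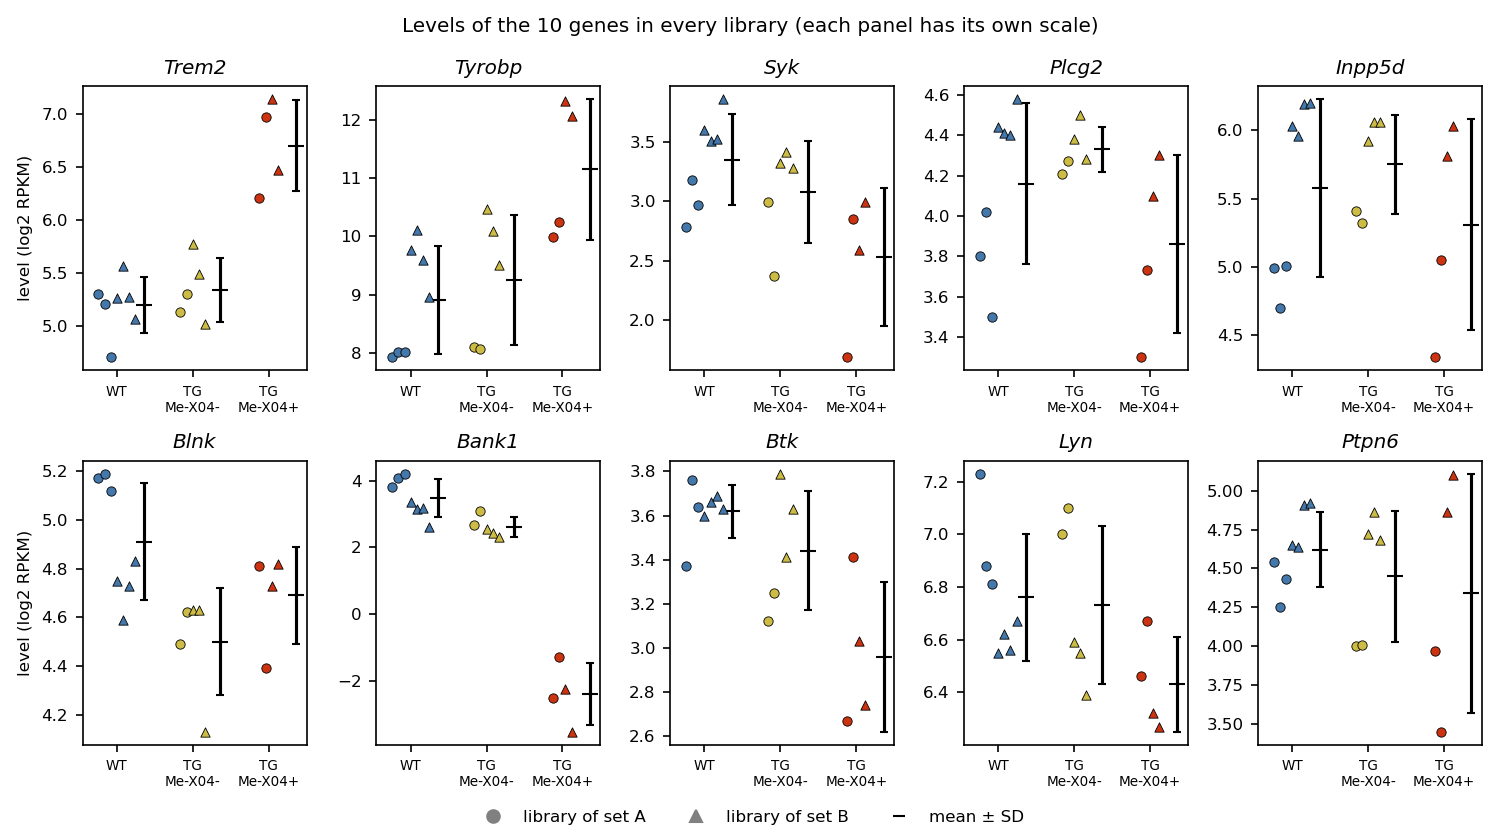
Level of each of the 10 genes in every library, as log2 RPKM, by group, with circles for libraries of set A, triangles for libraries of set B and a bar for the group mean ± SD. Trem2 stood highest in the 4 TG Me-X04+ libraries and Bank1 lowest in them, and Tyrobp was higher in set B than in set A in each group.

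Syk (ENSMUSG00000021457, chr13:52583173-52648792), the kinase recruited to phosphorylated ITAMs, ranged from 2.78 to 3.86 in WT with a median of 3.51. The TG Me-X04- libraries stood at 2.99, 2.37, 3.32, 3.41 and 3.28, and the TG Me-X04+ libraries at 1.69, 2.85, 2.59 and 2.99. The groups overlapped in every comparison, with the lowest library of all among the TG Me-X04+. The log2FC was -0.55 ± 0.30 against TG Me-X04- (adjusted p = 0.357) and -0.81 ± 0.28 against WT (adjusted p = 0.0621). The latter was called under 8 of 27 alternatives, among them a term for the 2 sets (-0.77, adjusted p = 0.008), and the adjusted p ranged from 0.008 to 0.21. It was also called without WT replicate 1 (-0.91, adjusted p = 0.0426) and without TG Me-X04+ replicate 4 (-0.97, adjusted p = 0.0437). In the same animal TG Me-X04+ was lower in 3 of 4 animals, by 1.30, 0.73 and 0.43, and higher by 0.49 in TG2.

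Lyn (ENSMUSG00000042228, chr4:3678115-3813122), a Src family kinase that phosphorylates ITAMs and also inhibitory receptors, ranged from 6.55 to 7.23 in WT with a median of 6.67. It stood at 7.00, 7.10, 6.59, 6.55 and 6.39 in TG Me-X04- and at 6.46, 6.67, 6.32 and 6.27 in TG Me-X04+. The groups overlapped over all libraries, and within each set both TG Me-X04+ libraries lay below all others of that set. Against TG Me-X04- the log2FC was -0.30 ± 0.20 (adjusted p = 0.469). The difference was -0.54, -0.42, -0.27 and -0.28 in the 4 animals, lower in 4 of 4. After quantile normalization it was -0.86 and called (adjusted p = 0.00551), the 1 of 25 alternatives that called it. Exons of Lyn share 248 bases with a long non-coding gene on the opposite strand, Gm26857, and whether the counting used strand is not given in the sources used here.

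Btk (ENSMUSG00000031264, chrX:134542336-134583570), the Tec family kinase that activates phospholipase C gamma 2, had the narrowest spread in WT, 3.37 to 3.76 with a median of 3.64. It stood at 3.12, 3.25, 3.79, 3.41 and 3.63 in TG Me-X04- and at 2.67, 3.41, 3.03 and 2.74 in TG Me-X04+. Of the TG Me-X04+ libraries 3 lay below every other library, and the remaining one, TG Me-X04+ 2, lay inside the range of both other groups. The log2FC was -0.48 ± 0.20 against TG Me-X04- (adjusted p = 0.195). Against WT it was -0.66 ± 0.19 with an adjusted p of 0.0232, short of the fold threshold of 0.7. Without TG Me-X04+ replicate 2 it was -0.81 and called (adjusted p = 0.00924), while blocking on the replicate number gave an adjusted p of 0.0707, the highest of 27 alternatives.

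Plcg2 (ENSMUSG00000034330, chr8:117498291-117635142), the phospholipase that turns the signal into calcium release, ranged from 3.50 to 4.58 in WT with a median of 4.40. The TG Me-X04- libraries lay close together at 4.21, 4.27, 4.38, 4.50 and 4.28, and the TG Me-X04+ libraries at 3.30, 3.73, 4.10 and 4.30. TG Me-X04+ 4 alone reached into the TG Me-X04- range. The log2FC was -0.47 ± 0.24 (adjusted p = 0.321), and within an animal Plcg2 was lower in 4 of 4, by 0.91, 0.54, 0.28 and 0.20. Set A libraries alone gave -0.73 and set B libraries -0.19.

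Blnk (ENSMUSG00000061132, chr19:40928927-40994535), the adaptor that brings PLCG2 and BTK together, ranged from 4.59 to 5.19 in WT with a median of 4.83. It stood at 4.49, 4.62, 4.63, 4.63 and 4.13 in TG Me-X04- and at 4.81, 4.39, 4.73 and 4.82 in TG Me-X04+. The log2FC of TG Me-X04+ against TG Me-X04- was 0.19 ± 0.18 (adjusted p = 0.651), and its sign turned to -0.13 after quantile normalization and to -0.09 with scaling by the reads that fell outside mitochondrial genes. TG Me-X04- stood below WT by -0.41 ± 0.16, with an unadjusted p of 0.0208 and an adjusted p of 0.785. This difference was -0.60 within set A, where the groups did not overlap, and -0.26 within set B, where they did.

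Inpp5d (ENSMUSG00000026288, chr1:87620312-87720507) encodes SHIP1, the lipid phosphatase that removes the product of PI3 kinase. It ranged from 4.70 to 6.20 in WT with a median of 5.96, and stood at 5.41, 5.32, 5.92, 6.06 and 6.06 in TG Me-X04- and at 4.34, 5.05, 5.81 and 6.03 in TG Me-X04+. Libraries of set B were higher than those of set A in each group, by 1.19 in WT. The log2FC was -0.44 ± 0.38 against TG Me-X04- (adjusted p = 0.591). The 4 animals gave -1.06, -0.27, -0.10 and -0.02, all lower, with most of the difference in TG1.

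Ptpn6 (ENSMUSG00000004266, chr6:124720707-124738714) encodes SHP-1, the tyrosine phosphatase of inhibitory receptors. It ranged from 4.25 to 4.92 in WT with a median of 4.64, and stood at 4.00, 4.01, 4.72, 4.86 and 4.68 in TG Me-X04- and at 3.97, 3.45, 4.86 and 5.10 in TG Me-X04+. The log2FC was -0.11 ± 0.30 (adjusted p = 0.888), with 2 animals higher and 2 lower. The difference was -0.30 among set A libraries and 0.22 among those of set B. Exons of Ptpn6 share 195 bases with an antisense gene, Gm20531, which had 7 to 203 reads per library.

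Bank1 (ENSMUSG00000037922, chr3:136053363-136326066) was well covered outside the TG Me-X04+ libraries. The WT libraries 1 to 7 held 1750, 2085, 2069, 1756, 1713, 1691 and 1096 reads on it, and the TG Me-X04- libraries 1 to 5 held 780, 1276, 1195, 1010 and 910. The TG Me-X04+ libraries 1 to 4 held 16, 44, 34 and 13 reads. In log2 RPKM the WT libraries ranged from 2.60 to 4.21 with a median of 3.36, the TG Me-X04- libraries stood at 2.66, 3.10, 2.54, 2.42 and 2.31, and the TG Me-X04+ libraries at -2.52, -1.30, -2.24 and -3.53. Every TG Me-X04+ library lay far below every other library.

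The log2FC of Bank1 was -5.01 ± 0.41 against TG Me-X04- (adjusted p = 1.11e-05), or 32.1-fold lower, and -5.88 ± 0.38 against WT (adjusted p = 3.73e-08), or 59.1-fold lower. The difference was -5.18, -4.40, -4.78 and -5.95 in animals TG1 to TG4. Because reads were added before the logarithm, these values understate the change, and limma voom on the recovered reads gave -5.15. With 1 RPKM added before the logarithm the difference from TG Me-X04- was -2.55 and still called (adjusted p = 2.91e-05). Between TG Me-X04- and WT the log2FC was -0.88 ± 0.35, with an unadjusted p of 0.0239 and an adjusted p of 0.814. TG Me-X04- lay below WT without overlap in each set, by -1.15 in set A and -0.65 in set B, and adjusting for set gave an adjusted p of 0.188, the lowest of 27 alternatives.

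Of the 13 B cell markers listed for the check, 4 had a row and 9 had none, so the list was covered in part. Cd79a, part of the B cell receptor, had 0 to 29 reads in WT, 0 to 9 in dye negative and 0 to 4 in dye positive TG libraries. Cd79b had 10 to 116, 16 to 105 and 7 to 93 reads. Ighd, the immunoglobulin delta heavy chain gene, had 270 to 1019, 279 to 466 and 379 to 589 reads. Ighm, the mu heavy chain gene, had the most, 2686 to 5211, 2882 to 7244 and 6425 to 7934 reads. In the same order of groups its mean log2 RPKM was 6.75, 6.75 and 7.71, and that of Ighd 3.51, 3.19 and 3.84. The mean of Cd79a was -2.51, -3.07 and -3.56, and that of Cd79b 1.10, 0.84 and 0.80. The summed level of the 4 markers, most of it Ighm, was 96.8 to 187 RPKM in WT. It was 70.5 to 206 in dye negative and 160 to 303 in dye positive TG libraries. None of the 7 T and NK cell markers had a row.

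Counted over the 10 genes, 1 was called higher (Trem2) and 1 lower (Bank1) in TG Me-X04+ against TG Me-X04-, where 5.49% of all genes were called, 3.44% higher and 2.06% lower. These were also the 2 genes whose groups did not overlap, as was so for 7.93% of all genes, 4.80% on the higher and 3.14% on the lower side. With the replicate number as a fixed block or the animal as a random block, 2 were called higher, Trem2 and Tyrobp. Of all genes 3.25% were called higher with the fixed and 6.28% with the random block. The log2FC was below 0 for 7 of the 10, with a median of -0.37 beside -0.094 over all genes. At an unadjusted p under 0.05 there were 4, the other 2 being Tyrobp and Btk, where 18.7% of all genes had such a p. The 10 genes were chosen with earlier results of these data known. The shares of all genes therefore give scale here and below, and do not test for enrichment.

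Against WT, TG Me-X04+ had 2 called higher (Trem2, Tyrobp) and 1 lower (Bank1), where 14.3% of all genes were called, 8.25% higher and 6.02% lower. Groups did not overlap for Trem2 on the higher and Bank1 on the lower side, where 6.56% and 3.97% of all genes did not. The median log2FC was -0.30 beside -0.107 over all genes. This comparison and the one with TG Me-X04- share the TG Me-X04+ libraries. Between TG Me-X04- and WT, limma and limma voom both called 0 of the 10, where limma called 0.201% of all genes, 0.189% higher and 0.0111% lower. Blnk and Bank1 were the 2 with an unadjusted p under 0.05, where 5.18% of all genes had one. None of the 10 had groups apart from each other in that comparison, and 1.06% of all genes had.

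**Figure D2:**
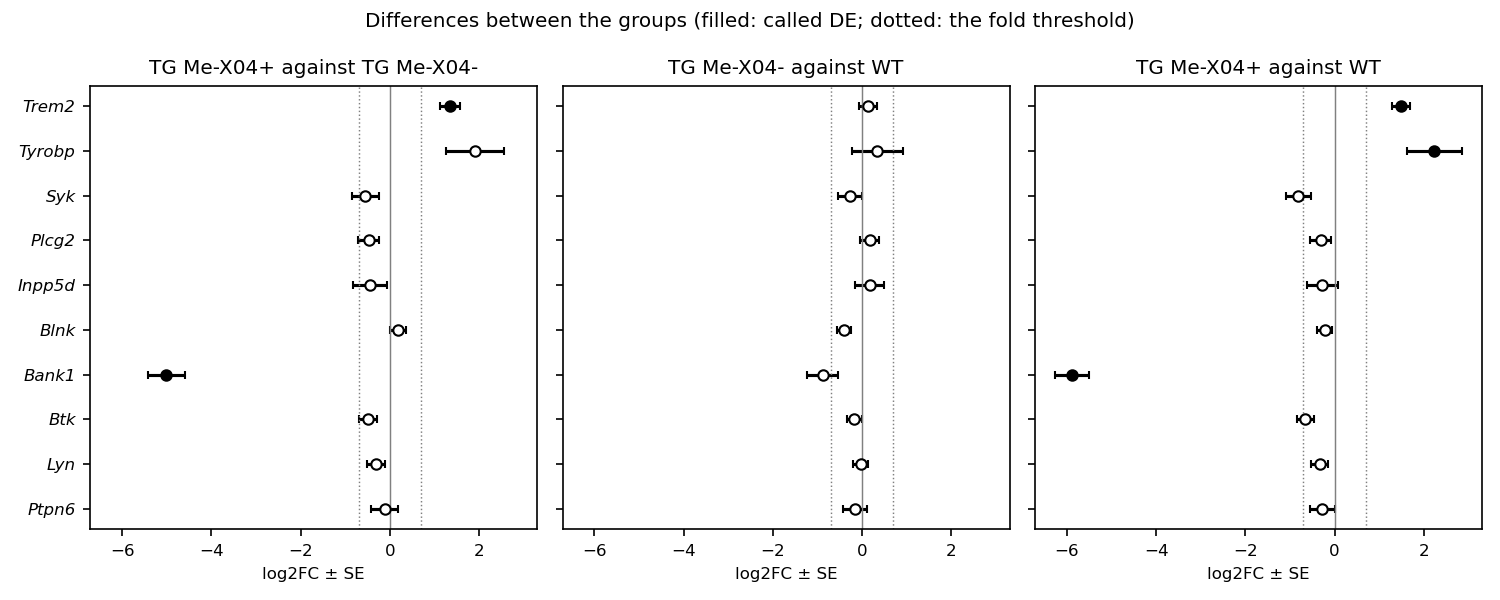
Log2FC with its SE for the 10 genes in the 3 comparisons, with filled points for genes called DE and dotted lines at the fold threshold of 0.7. Bank1 stood at -5.01 against TG Me-X04- and at -5.88 against WT, and Tyrobp had the widest SE, 0.65 and 0.61 in the same comparisons.

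**Figure D3:**
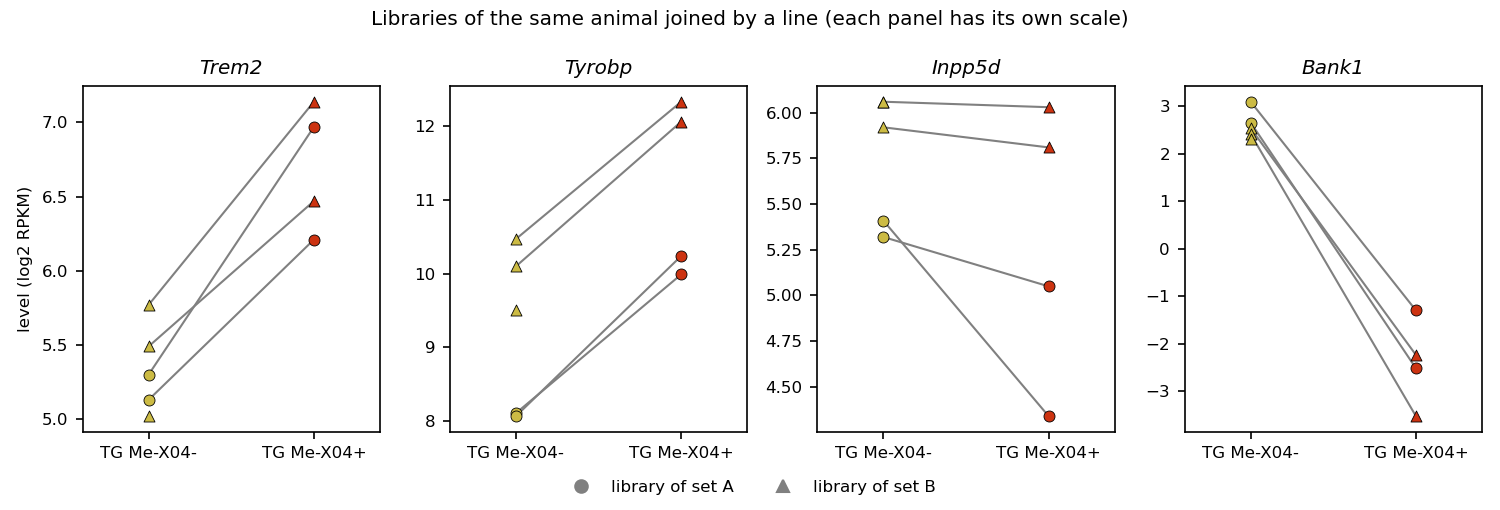
Log2 RPKM of Trem2, Tyrobp, Inpp5d and Bank1 in the libraries of the 2 TG groups, with a line between libraries of the same animal and circles and triangles for sets A and B. The lines for Tyrobp ran side by side, with differences of 1.86 to 2.17 in the 4 animals, from starting levels 8.07 to 10.47.

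Ratios within a library, which do not depend on how it was scaled, were compared with exact two-sided permutation tests, adjusted over 15 tests. Tyrobp stood above Trem2 by 3.91 ± 0.95 (log2, SD, n = 5) in TG Me-X04- and by 4.46 ± 1.11 (n = 4) in TG Me-X04+, a difference of 0.55 (exact permutation p = 0.444, adjusted 0.741). Within an animal this ratio was higher by 0.69 ± 0.24 in TG Me-X04+, in 4 of 4 animals (exact sign-flip p = 0.125, the smallest that 4 animals allow). Plcg2 over Syk was 0.82 ± 0.15 (n = 7) in WT and 1.25 ± 0.37 (n = 5) in TG Me-X04-, higher by 0.44 (exact permutation p = 0.00505, adjusted 0.0455), by 0.77 within set A and 0.21 within set B. Without any 1 of WT replicates 1 to 6 or of TG Me-X04- replicates 1 to 4, the adjusted p was between 0.0595 and 0.0909, with a difference of 0.27 to 0.49. Bank1 over Blnk was -1.43 ± 0.42 in WT, -1.90 ± 0.27 in dye negative and -7.09 ± 1.10 in dye positive TG libraries, lower than WT by 5.66 (exact permutation p = 0.00606, adjusted 0.0455) and lower than TG Me-X04- by 5.19 (exact permutation p = 0.0159, adjusted 0.0794). In both comparisons the groups were fully apart, so that p was the smallest these group sizes allow. Bank1 was chosen with its fall in these data known, so these 2 p-values restate that fall and are no separate test of it. With any 1 library left out the difference from WT stayed between -6.12 and -5.24, while the smallest p that the fewer libraries allow was larger (adjusted 0.0476 to 0.125). Between TG Me-X04- and WT it differed by -0.47 (exact permutation p = 0.0581, adjusted 0.145), and by -0.60 without WT replicate 7 (adjusted 0.0476). Inpp5d over Syk and Ptpn6 over Lyn gave adjusted p-values from 0.0833 to 0.915 in exact permutation tests.

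By level per length, Tyrobp stood first in every group and Lyn second in WT and TG Me-X04-. In WT the mean log2 RPKM fell from 8.91 (Tyrobp) and 6.76 (Lyn) through 5.58 (Inpp5d), 5.20 (Trem2), 4.91 (Blnk), 4.62 (Ptpn6) and 4.16 (Plcg2) to 3.62 (Btk), 3.48 (Bank1) and 3.35 (Syk). Only the first 2 steps, to Lyn and to Inpp5d, parted the ranges of neighbouring genes in WT. In TG Me-X04+ Trem2 (6.70) stood second, above Lyn (6.43) in 3 of 4 libraries with overlapping ranges, and Bank1 (-2.40) stood last, apart from Syk (2.53). The deposited length equalled the sum of all annotated exon bases in GENCODE M21 for 8 of the 10 genes, and for Trem2 that was 4946 bases against 1088 in its longest protein-coding transcript. For Tyrobp the deposited 564 bases fell short of both its exon sum (667) and its longest protein-coding transcript (597), and Plcg2 had 4296 against 4298. With the length of that transcript for each gene, Trem2 stood second in all 3 groups, at 7.39 in WT, and Tyrobp stayed first, at 8.83 in WT.

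The wider pathway was described with 5 lists of 96 genes, 80 of which had a row. These lists too were drawn up with earlier results known, so the shares of all genes beside their counts give scale only. In TG Me-X04+ against TG Me-X04-, 5 of the 80 were called higher (3.44% of all genes were) and 8 lower (2.06% of all genes were), with a median log2FC of -0.15. With the animal as a random block 11 were called higher, where 6.28% of all genes were, and with a term for the 2 sets 9, where 7.38% of all genes were. Between TG Me-X04- and WT, 2 were called higher and 0 lower, where limma called 0.189% of all genes higher. Limma voom gave the same 2 counts there, and 5 had an unadjusted p under 0.05 in the higher and 4 in the lower direction, where 3.29% and 1.88% of all genes had. In TG Me-X04+ against WT, 12 were called higher and 15 lower, where 8.25% and 6.02% of all genes were, with a median log2FC of -0.14.

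Of the 19 ITAM receptors and adaptors listed, 9 had no row. Of the other 10, 2 rose and none was called lower, with a median log2FC of 0.63. Over all genes 3.44% were called higher and 2.06% lower, with a median log2FC of -0.094. Clec7a (Dectin-1), a receptor with an ITAM-like motif that binds beta-glucans, went from 0.35 ± 0.76 in WT to 3.34 ± 0.45 in dye negative and 6.08 ± 0.48 in dye positive TG microglia. It rose in both steps, by 2.98 ± 0.34 (adjusted p = 0.000444) and 2.75 ± 0.39 (adjusted p = 0.000831). Fcer1g, the ITAM adaptor of Fc receptors, rose from 9.30 ± 0.44 in TG Me-X04- to 10.32 ± 0.24 (adjusted p = 0.0435), a call kept under 15 of 25 alternatives. Among the Src, Csk and Tec family kinases 8 of 11 had a row. Of these 1 rose, Fyn, by 1.75 ± 0.46 (adjusted p = 0.0347, kept under 13 of 24 alternatives), and none was called lower.

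Of the adaptors and effectors 29 of 32 had a row. Of these 3 fell and none was called higher, with a median log2FC of -0.27. Over all genes 2.06% were called lower and 3.44% higher, with a median of -0.094. The adaptor Grap fell by 2.08 (adjusted p = 0.00977), the PH domain adaptor Dapp1 by 0.91 (adjusted p = 0.0185) and the adaptor Sh2b3 by 0.75 (adjusted p = 0.0247). Of 25 alternatives Grap kept its call in 25, Dapp1 in 23 and Sh2b3 in 17. Of the inhibitory receptors and phosphatases 4 of 27 fell and 1 rose, with a median of 0.01. The sialic acid receptor Siglece went from 579 to 904 reads per library in TG Me-X04- to 27 to 157 in TG Me-X04+, a fall of 3.24 (adjusted p = 4.89e-05). The lectin receptor Clec4a2 fell by 2.31 (adjusted p = 0.00124) and Cd300a by 1.00 (adjusted p = 0.0125). Dok3, an inhibitory adaptor, fell by 3.30 ± 0.79 (adjusted p = 0.0202), with 0 to 101 reads in the TG Me-X04+ libraries and overlapping groups. Its call was kept under 21 of 24 alternatives, with a log2FC from -4.20 to -1.67. Lilrb4a rose by 2.07 ± 0.43 (adjusted p = 0.00909). Clec4a2, Cd300a and Lilrb4a belong to families of similar genes, among which the counting could have divided reads.

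Of the 7 genes for TREM2 shedding, ligands and partners, 6 had a row, of which 1 rose and 1 fell. Over all genes 3.44% were called higher and 2.06% lower. Apoe, which encodes an apolipoprotein that TREM2 binds, went from 3.38 ± 0.85 in WT to 5.94 ± 0.53 in dye negative and 9.09 ± 0.83 in dye positive TG microglia. It rose by 2.56 ± 0.41 (adjusted p = 0.00847) and then by 3.15 ± 0.46 (adjusted p = 0.000983). Plxna1, a semaphorin receptor that associates with TREM2 and TYROBP, fell by 2.59 ± 0.63 (adjusted p = 0.0211), from 97 to 143 reads to 4 to 80. Its call was kept under 17 of 23 alternatives, with a log2FC from -3.25 to -0.49.

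**Figure D4:**
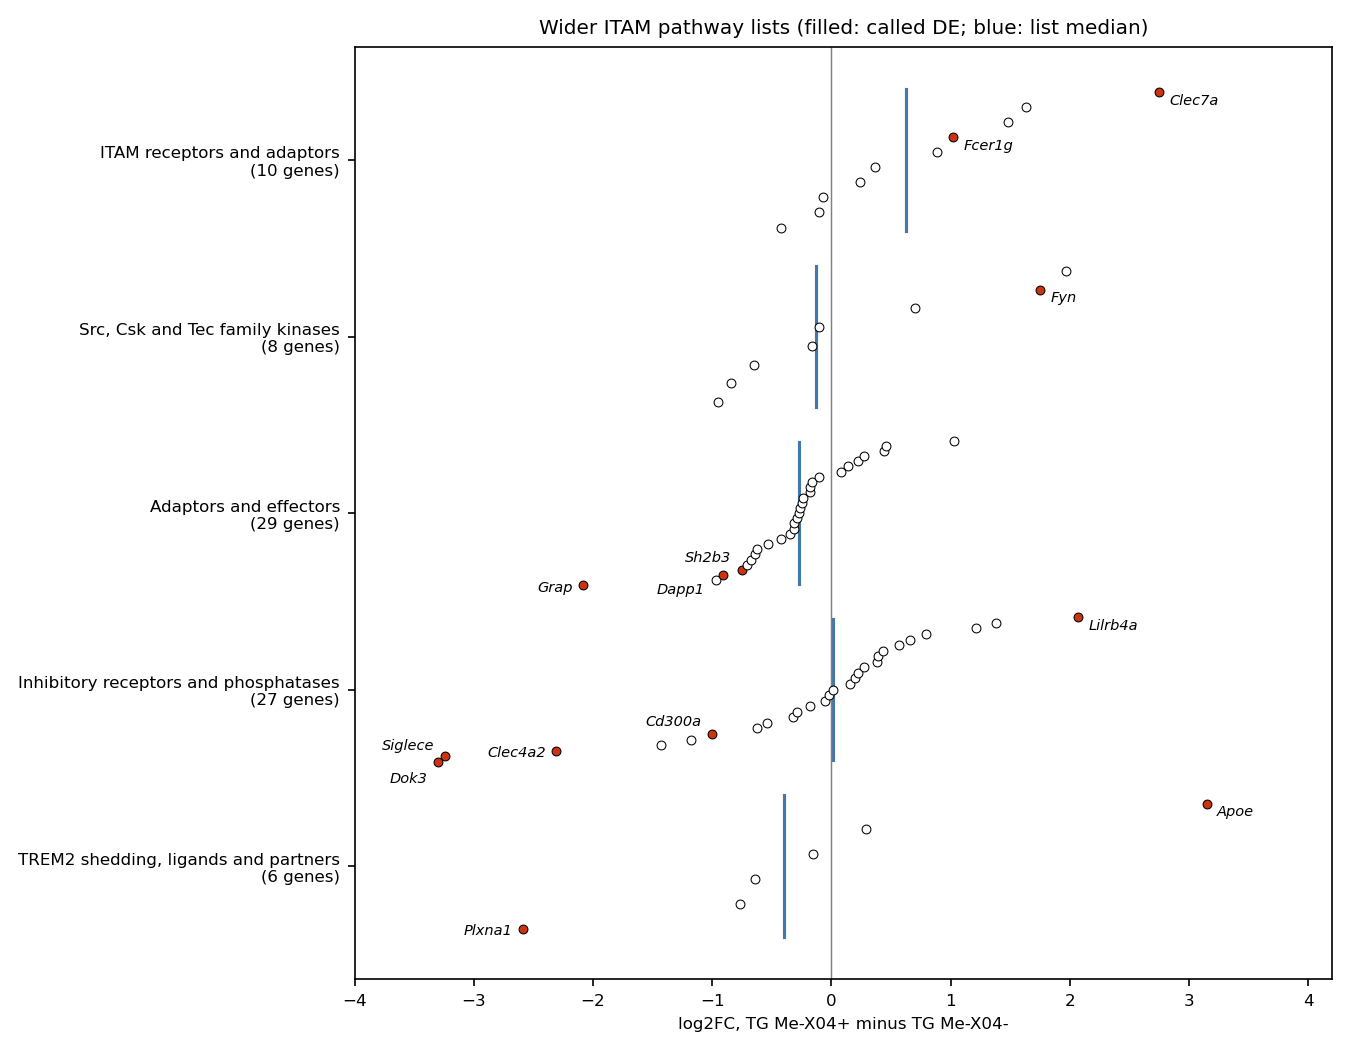
Log2FC of TG Me-X04+ against TG Me-X04- for the genes of the 5 wider pathway lists, 1 point per gene in order within its list, with filled and named points for genes called DE and a blue line at the list median. Called genes lay on the high side among the ITAM receptors and adaptors, where the median was 0.63, and on the low side among the adaptors and effectors, where it was -0.27.

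The genes whose levels over the 16 libraries ran most like those of 3 of the 10 were listed by Pearson's r among 12918 genes with a symbol, as a description, since the libraries share groups, sets and animals. For Trem2 they were Rps15a (0.948), Gm12174 (0.944), Gusb (0.943), Adssl1 (0.942) and Rpl41 (0.942), 2 of them ribosomal protein genes and Gusb a lysosomal enzyme. For Tyrobp they were Rpl10 (0.969), Mir682 (0.968), Rpl11 (0.968), Ftl1 (0.965), which encodes ferritin light chain, and LOC108168114 (0.963). For Bank1 they were Tmem204 (0.975), Ms4a6b (0.966), Ptger3 (0.961), a prostaglandin E receptor, Nhsl2 (0.960) and Otulinl (0.958).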

How the data were processed

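RNA sequencing of sorted microglia was analysed from the table that the authors deposited for 16 libraries. Per the study's methods, the authors had reads trimmed with Trim Galore, aligned to GRCm38 with STAR, counted with featureCounts on Gencode M16 genes, filtered for low expression with edgeR's filterByExpr and scaled by TMM. The authors deposited log2 RPKM values and gene lengths. They also deposited 12 columns of their own comparisons (fold changes, mean expression, test statistics and p-values), which were not used. Reads were recovered from the equal steps of the values, 100% of them whole within 0.01, and served for depths and alternatives.

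Tests on the log2 scale used limma (version 3.58.1, run under R 4.3.3), with all 3 groups in 1 linear model and moderated variances that follow a mean-variance trend. The quasi-likelihood test named in the study's methods needs counts and was not run on log2 values. Ratios used exact permutation tests (scipy). The tests were checked on simulated data. The same-numbered TG libraries were taken as sharing an animal. Their deviations from the group means correlated (mean r 0.317 over 4 pairs, against 0.272 for other animals of the same set). The 4 pairs ranged from 0.292 to 0.329 and the others from 0.221 to 0.332, so these correlations cannot show the pairing. WT libraries of those numbers are other animals. P-values measure the spread between these libraries.

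The 10 genes, the wider lists and the markers were chosen with earlier results of these data known, the fall of Bank1 among them. All 10 were named with their values, of the wider lists the genes called DE in the comparison of the TG groups or of TG Me-X04- with WT, and for Trem2, Tyrobp and Bank1 the 5 genes most alike by Pearson's r. Alternatives changed the variance model, library weights, scaling, pseudocount, low-value filter, samples, fold threshold, block, set term, test (limma voom) and gene length, and left out each library in turn.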

Additional observations from a re-analysis of the deposited data

Results flagged for a closer look

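Among the 30 combinations of the 10 genes and 3 groups, 2 held a library far from the rest of its group by Dixon's test at the 95% level, where chance flags about 1 in 20. Blnk stood at 4.13 (log2 RPKM) in TG Me-X04- replicate 5, with the other 4 libraries of that group between 4.49 and 4.63. Btk stood at 3.37 in WT replicate 1, with the other 6 between 3.60 and 3.76.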

How the results depend on the processing

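For TG Me-X04+ against TG Me-X04-, 1 of the 10 genes was called higher in the fit reported (share of all genes in brackets, 3.44%). There were 2, with Tyrobp added, under the replicate block as a fixed number (3.25%) or a random animal (6.28%). The set term also gave 2 (7.38%), and quantile normalization gave 0 (2.35%). Those called lower numbered 2 after quantile normalization (2.27%), where Lyn was added. They numbered 0 with a minimum mean log2 RPKM of 2 (2.27%), which removes Bank1 from the test. For TG Me-X04+ against WT, those called higher numbered 1 after quantile normalization (7.69%) and 1 to 2 with 1 library left out (7.14% to 8.41%). Those called lower numbered 2 with no fold threshold (6.39%), median centring (5.99%) or the set term (9.92%). They numbered 3 with library weights (6.25%) or scaling outside mitochondrial genes (8.51%). They numbered 4 after quantile normalization (6.61%) and 1 to 2 with 1 library left out (4.58% to 6.89%). No direction that was called turned, and the block changed no other call of the 10 genes.

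Of the 80 list genes, 5 were called higher in TG Me-X04+ against TG Me-X04- (share of all genes in brackets, 3.44%). They numbered 3 with scaling outside mitochondrial genes (1.72%) or only these 2 groups (1.93%). They numbered 11 with the random animal block (6.28%), 9 with the set term (7.38%) and 3 to 6 with 1 library left out (1.89% to 3.02%). The 8 called lower (2.06%) became 15 after quantile normalization (2.27%), 14 with scaling outside mitochondrial genes (4.02%) and 3 with only these 2 groups (0.685%). With 1 library left out they numbered 5 to 9 (1.18% to 2.76%). Against WT the 15 called lower became 25 after quantile normalization, where 6.61% of all genes were called lower, and the 12 called higher became 11, where 7.69% were called higher. With 1 library left out, the difference in the ratio of Plcg2 over Syk between TG Me-X04- and WT ran from 0.27 to 0.50, and that of Bank1 over Blnk from -0.60 to -0.38, and from -6.12 to -5.24 for TG Me-X04+ against WT. Scaling outside mitochondrial genes moved the median log2FC of all genes from -0.094 to -0.368 for TG Me-X04+ against TG Me-X04-. Bank1 had 13 to 44 reads in each of the 4 TG Me-X04+ libraries. The cause of these changes was not tested.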
